A study of Mus musculus with 2 samples.

Results

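Goblet progenitors are 1 of the classes of jejunal crypt cells that the authors named, set apart from both mature goblet cells and a mixed class of secretory progenitors. They were taken here as the cells annotated "Goblet progenitor" in the 2 libraries of mice with a whole-body deletion of miR-375 (375KO), and they numbered 246 of 3275 annotated cells, 162 in replicate 1 and 84 in replicate 2. Both mice were males of 12 months of strain C57BL6/2J, described as B6 albino, each gave 1 library, and every cell described here carries the deletion. Crypts were freed from the jejunum, dissociated with dispase and profiled with a droplet method that counts the 3′ ends of polyadenylated RNA. The study used these mice to examine the microRNA miR-375 in the intestine, and wild-type libraries were not analysed here. No genotype was therefore compared with another, and the comparisons below set goblet progenitors beside the other 8 epithelial cell types of the same 2 mice.

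Goblet cells make and secrete the mucus that coats the intestinal surface. Their lineage starts in the crypt, where cells that escape Notch signalling switch on the transcription factor Atoh1, present Notch ligands such as Dll1 to their neighbours and, with Spdef, mature into goblet or Paneth cells. Mature goblet cells have left the cell cycle and hold a large endoplasmic reticulum, in which the mucin Muc2 is folded before its sugars are added in the Golgi.

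Goblet progenitors were deeply captured and carried high doublet scores, and both facts bear on what follows. The libraries held 2082 and 1193 annotated cells and shared 0 barcodes. The labels name the same kit chemistry for both, and whether the libraries differed in it was not tested. The median goblet progenitor had 28554.5 UMIs (unique molecular identifiers, each 1 captured RNA molecule) in replicate 1 and 19683 in replicate 2. Goblet cells had 13649 and 15708.5, and transit-amplifying (TA) cells, the fast dividing cells of the crypt, had 20811 and 16966. The doublet score of the authors runs from 0 to 1 and rises where a droplet resembles a mixture of 2 cells. Droplets called doublets had already been removed, but the median score of the goblet progenitors that remained was 0.201 and 0.0905. The score was above 0.1 in 115 of 162 goblet progenitors (71.0%) and 40 of 84 (47.6%), against 17.8% and 1.55% of TA cells and 10.5% and 18.1% of goblet cells. It was above 0.5 in 24 (14.8%) and 12 (14.3%). Score and depth moved together among goblet progenitors, with Spearman's rho of 0.50 over 162 cells and 0.55 over 84. This was not particular to them, with 0.66 and 0.55 in TA cells and 0.71 and 0.46 in enterocytes. Goblet cells gave -0.11 and 0.33. Whether the goblet progenitor droplets hold 1 cell or 2 was not tested. The counts for most gene lists, and the values for several genes, are therefore also given without cells of any type that score above 0.1, which leaves 47 and 44 goblet progenitors.

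**Figure D1:**
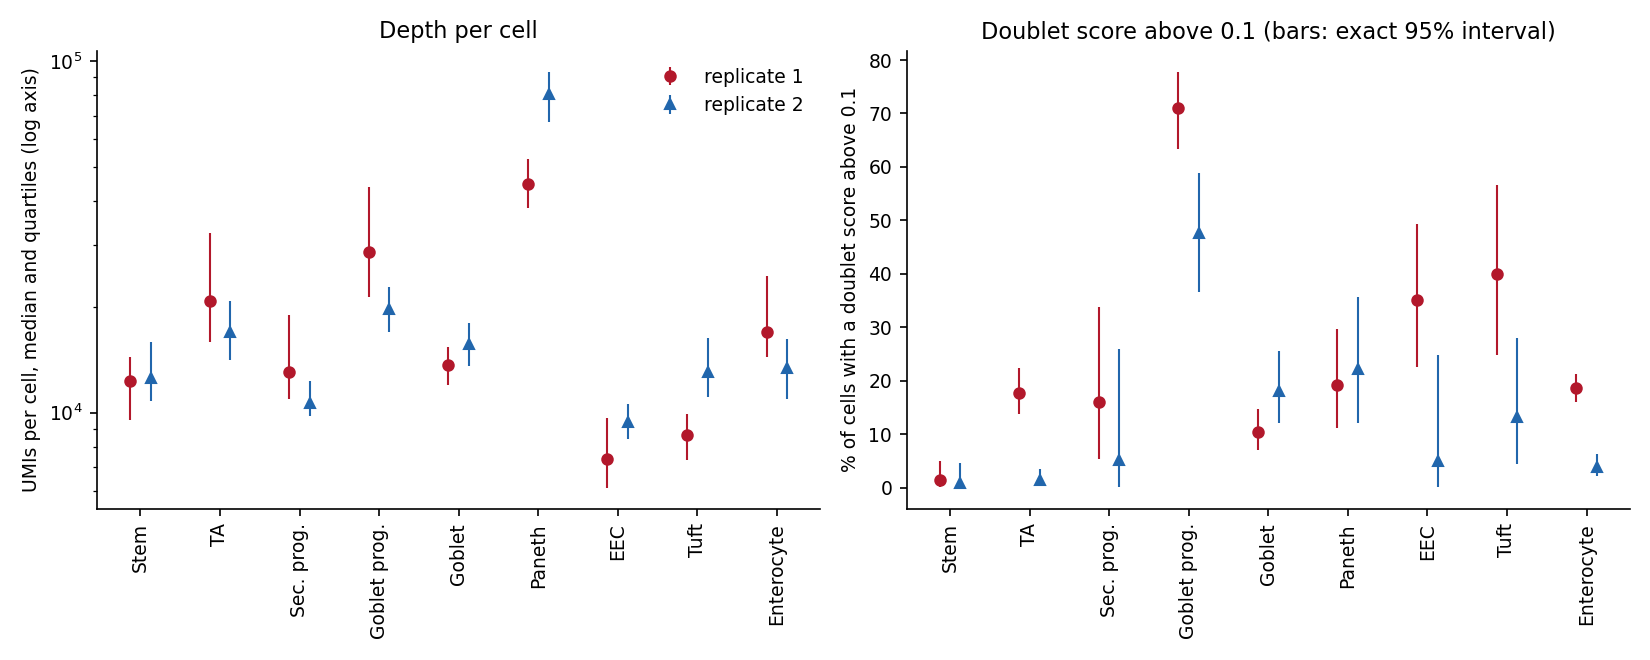
Left, UMIs per cell on a log axis for the 9 epithelial types, with the median as a point and the quartiles as a bar, 1 per mouse. Right, the percent of cells with a doublet score above 0.1, with exact 95% intervals, in which goblet progenitors reached 71.0% in replicate 1 and 47.6% in replicate 2.

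Goblet progenitors made up 7.78% of annotated cells in replicate 1 (exact 95% interval 6.67 to 9.02) and 7.04% in replicate 2 (5.65 to 8.64), a mean of 7.41% ± 0.52 (SD, n = 2). With cells of more than 10% mitochondrial UMIs or fewer than 2000 genes left out, the shares were 13.02% and 7.76%. Each mouse gave 1 library, so the intervals cover counting error only. A Fisher exact test of the 2 libraries was run, but it treats cells as replicates. Its p values are therefore not given, and no difference between the mice is drawn from it.

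UMIs were summed per mouse and cell type and expressed per 1000000 UMIs of a TMM-scaled library (scaled CPM). Pairs of values below are replicate 1 and then replicate 2. For goblet progenitors 1 UMI is worth 0.129 and 0.468 scaled CPM, and a count of 0 allows up to 0.386 and 1.404, counting error only. Differences between types are log2 fold changes, goblet progenitors over the other type, from the quasi-likelihood fit of edgeR. They carry standard errors (SE) and p values adjusted over 11013 genes. The mean of the other types is the unweighted mean of their fitted log2 levels. Types with few or 0 UMIs pull that mean down, so a gene can lie above it while another type stands higher. The authors named the types from expression in these same cells, so these calls describe how far the classes stand apart and how well that repeats over 2 mice. Cells of 1 mouse are not replicates, so the tests rest on 2 mice and a spread shared over the types. A lower sum can stand for fewer cells with the RNA or for less RNA in each, and the sums alone do not tell these apart.

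The label was checked against 4 genes of the goblet lineage, and all 4 were present in both mice. Together they summed to 12133 and 10994 scaled CPM in goblet progenitors, 56668 and 40819 in goblet cells and 8281 and 6591 in Paneth cells. The TMM scaling factors were 0.1557 and 0.121 for Paneth cells and 1.45 and 1.285 for goblet progenitors. Scaled CPM therefore raises Paneth values relative to their plain share of UMIs. Muc2, the gel-forming mucin (chromosome 7, 141690340 to 141754693, plus strand, mm10), reached 1999.5 and 1321 scaled CPM in goblet progenitors. It reached 9598 and 4255 in goblet cells, 124 and 107 in secretory progenitors and 27.3 and 5.94 in TA cells. Goblet progenitors thus stood below goblet cells and above both other progenitor classes in each mouse. The fit gave 6.83 (SE 1.003, adjusted p = 0.00361) against TA cells and -1.96 (SE 0.79, adjusted p = 0.105) against goblet cells, the second short of the threshold of 0.05. The value against TA cells was 7.90, and passed, without cells that score above 0.1.

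Agr2, a disulfide isomerase that mucin folding depends on (chromosome 12, 35992907 to 36004087, plus strand), reached 7039 and 7725 in goblet progenitors, 31766 and 28262 in goblet cells and 67.3 and 0 in TA cells. Goblet progenitors had the second highest level of the 9 types in both mice. Against the mean of the other 8 types the fit gave 5.04 (SE 1.01, adjusted p = 0.0136). Against TA cells it gave 8.66 (SE 2.43, adjusted p = 0.0895), which did not pass, with 0 UMIs in the TA cells of replicate 2.

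Fcgbp, a large protein of the mucus gel (chromosome 7, 28071236 to 28120862, plus strand), reached 3037 and 1877 in goblet progenitors, 15091 and 8103 in goblet cells and 62.1 and 26.2 in TA cells. It was above TA cells by 5.83 (SE 1.34, adjusted p = 0.0388), a call that the stricter cell filter ended and that held at 7.29 without cells that score above 0.1. Spdef, an ETS-family transcription factor of secretory cell maturation (chromosome 17, 27714352 to 27728955, minus strand), reached 58.0 and 70.7 in goblet progenitors, 212 and 199 in goblet cells, 83.9 and 93.5 in secretory progenitors and 1.65 and 0.132 in TA cells. It was higher than in TA cells by 5.90 (SE 0.39, adjusted p = 1.44e-09) and lower than in goblet cells, with -1.70 (SE 0.26, adjusted p = 6.43e-05). The values for Spdef without cells that score above 0.1 were 8.26 against TA cells and -1.22 against goblet cells, and both passed.

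**Figure D2:**
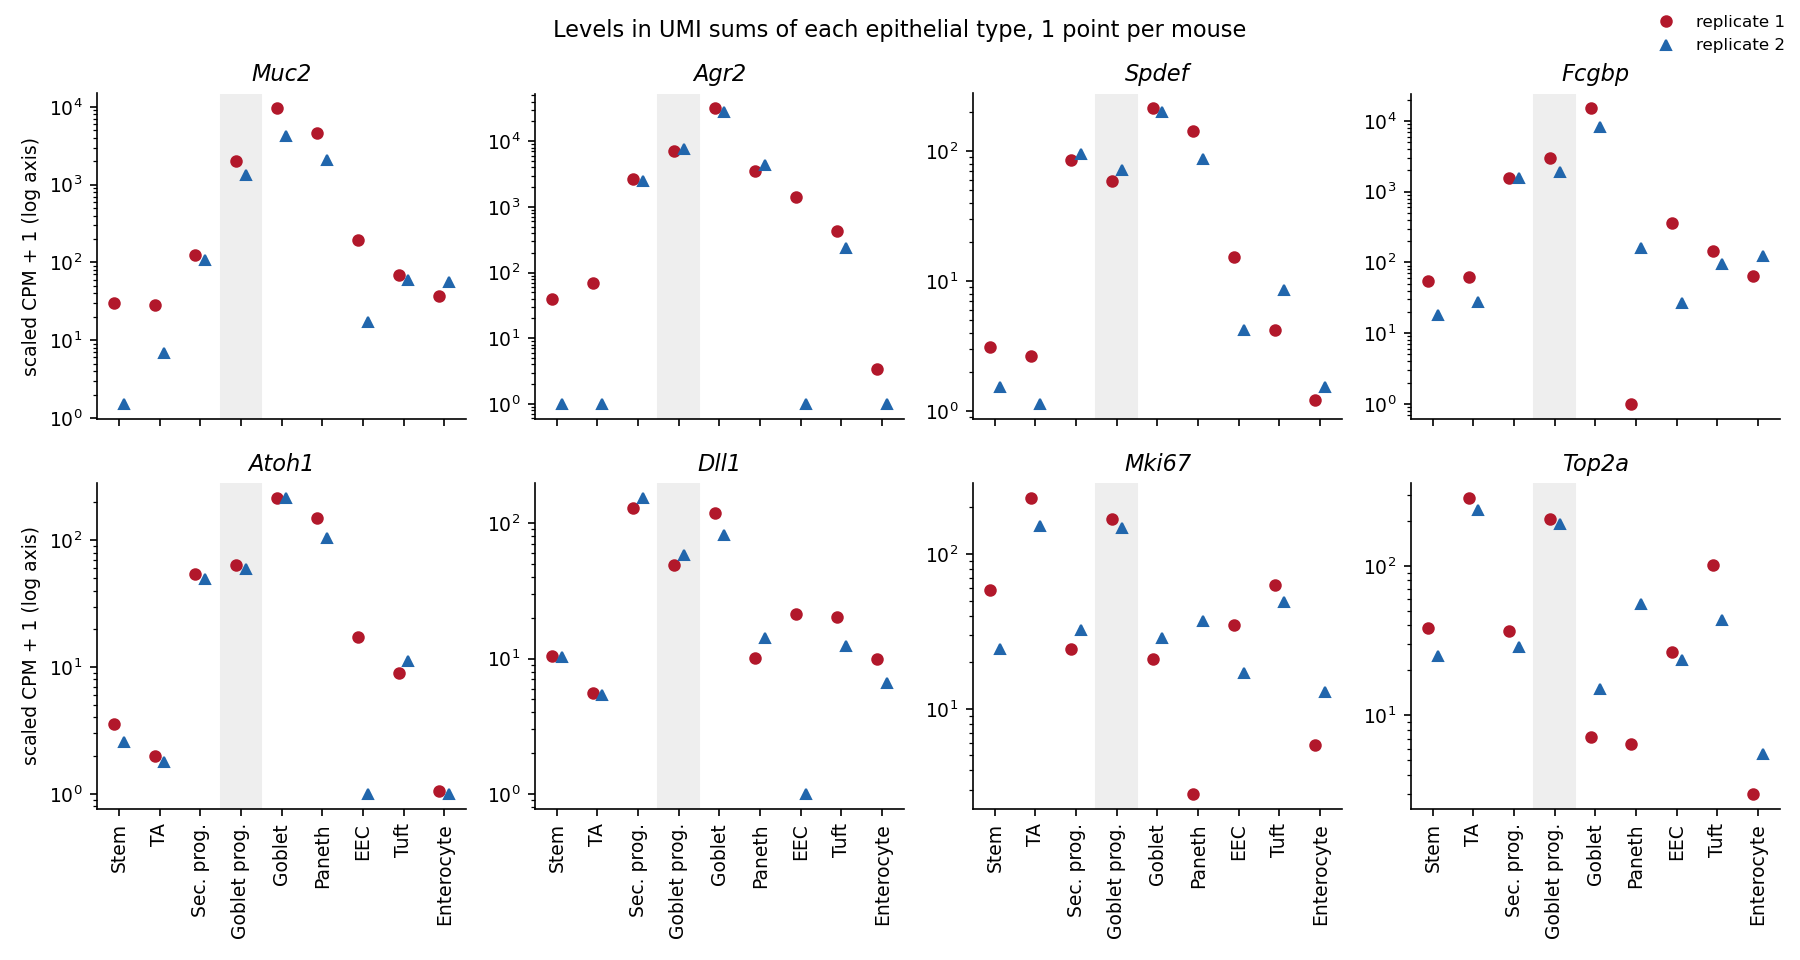
Scaled CPM plus 1, on a log axis, of 4 goblet lineage genes (Muc2, Agr2, Spdef, Fcgbp), 2 fate genes (Atoh1, Dll1) and 2 cell cycle genes (Mki67, Top2a) in the 9 epithelial types, 1 point per mouse. Goblet progenitors hold goblet genes at levels between TA and goblet cells, and hold Mki67 and Top2a near the levels of TA cells.

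Across the transcriptome 983 of 11013 genes (8.93%) were higher in goblet progenitors than in the mean of the other 8 types and 355 (3.22%) lower. Against goblet cells 1451 (13.2%) were higher and 1757 (16%) lower, against TA cells 599 (5.44%) were higher and 87 (0.79%) lower, and against secretory progenitors 169 (1.53%) were higher and 219 (1.99%) lower. Without cells that score above 0.1, 10829 genes were tested. Against TA cells 618 were then higher and 522 lower, so the percent of higher genes among the calls was 54.2 in place of 87.3. Against goblet cells 968 were higher and 1170 lower, and against secretory progenitors 188 were higher and 92 lower. List counts given below without such cells are to be read beside these counts, not beside the shares of the full fit. In the full fit the sign was the same in both mice for 3180 of the 3208 calls against goblet cells and 685 of the 686 against TA cells. A model without the mouse term called fewer genes in every comparison, with 548 and 496 against goblet cells and 259 and 0 against TA cells, and ended 127 of 313 calls for named genes.

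The secretory cargo of goblet cells was already abundant. Of 18 tested genes for mucus and granule proteins, 12 were higher in goblet progenitors than in TA cells and 0 lower, where 5.44% of all genes were higher, with a median log2 fold change of 5.70 beside -0.06 for all genes. Against goblet cells 1 was higher and 8 were lower, where 16% of all genes were lower, with a median of -2.07 beside -0.01. Leaving out cells that score above 0.1 made these counts 14 and 0 against TA cells and 1 and 7 against goblet cells.

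Clca1, a metalloprotease that processes the mucus gel, reached 413 and 293 in goblet progenitors, 2446 and 1692 in goblet cells and 2.89 and 0 in TA cells. Clca1 was above TA cells by 7.79 (SE 0.77, adjusted p = 2.78e-04) and lower than in goblet cells, with -2.55 (SE 0.54, adjusted p = 0.00755). Rep15, a Rab15 effector, reached 124 and 87.0 against 683 and 484 in goblet cells and 0.661 and 0 in TA cells, and passed in both directions, with 8.0 and -2.47. Both genes lay above every TA sum and below every goblet sum. They were named from the highest calls against TA cells with the same sign in both mice. This order is therefore no further evidence, and its share over all genes was not computed.

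The trefoil peptide Tff3 reached 6889 and 19739.9 in goblet progenitors, against 42865 and 70736 in goblet cells, 6029 and 14368 in secretory progenitors and 58.0 and 86.0 in TA cells. It was higher than in TA cells by 7.38 (SE 0.99, adjusted p = 0.00209), and its log2 fold change of 0.34 (adjusted p = 0.888) against secretory progenitors did not pass. Spink4, a Kazal-type inhibitor, reached 4506 and 12019 against 717 and 935 in secretory progenitors and 23.6 and 7.66 in TA cells. Zg16, a lectin-like protein that binds bacteria in mucus, reached 11316 and 8523 against 84105 and 60449.9 in goblet cells, 94.8 and 135 in secretory progenitors and 14.9 and 0 in TA cells. Its log2 fold change was 7.83 (adjusted p = 0.00413) against the mean of the log2 levels of the other types. Types with few or 0 UMIs lower that mean, and goblet cells stood above goblet progenitors. The values of 11.18 (adjusted p = 0.0586) against TA cells and 6.48 (adjusted p = 0.203) against secretory progenitors did not pass.

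Klk1, a secreted kallikrein protease, was at 192 and 174 in goblet progenitors, 1066 and 808 in goblet cells and 15.7 and 12.7 in TA cells. The chemokine Ccl9 was at 70.8 and 125, against 372 and 425 in goblet cells and 0.578 and 0 in TA cells. Guca2a, which encodes guanylin, was at 1009 and 2542, against 5579 and 10434 in goblet cells and 11.2 and 2.91 in TA cells. These 3 genes followed the order of Clca1, with goblet progenitors between TA and goblet cells in both mice, and were higher than in TA cells by 3.68, 7.89 and 7.77, all past the threshold.

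The order was not the same for each granule protein. Vamp8, a SNARE of regulated secretion, was at 129.9 and 187 in goblet progenitors and 120.1 and 173 in TA cells, a log2 fold change of 0.11 (adjusted p = 0.786), and was at 221 and 261 in goblet cells (-0.63, adjusted p = 0.00201). Muc13, a membrane-bound mucin, was at 283 and 441 against 193 and 239 in TA cells and 662 and 561 in goblet cells, and passed in neither comparison. Muc4, another membrane-bound mucin, was the 1 gene of the list above goblet cells, with 15.7 and 11.7 against 5.06 and 1.41.

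Most tested transcription factors of secretory fate stood above their levels in TA cells. Of 16 tested, 12 were higher in goblet progenitors than in TA cells and 0 lower, with a median log2 fold change of 3.34. Of all genes 5.44% were higher than in TA cells and 16% lower than in goblet cells. Against goblet cells 3 were higher and 10 lower (median -1.36), and against secretory progenitors 0 were higher and 5 lower (median -0.47), where 1.99% of all genes were lower. With cells that score above 0.1 left out the counts were 13 and 1 against TA cells, 2 and 7 against goblet cells and 0 and 4 against secretory progenitors.

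Atoh1, the basic helix-loop-helix factor that secretory cells require, reached 62.4 and 58.5 in goblet progenitors, 213 and 214 in goblet cells, 52.8 and 48.5 in secretory progenitors and 0.991 and 0.793 in TA cells. The sums of goblet and secretory progenitors lay side by side, and the difference of 0.26 (SE 0.28, adjusted p = 0.715) did not pass. Atoh1 was higher than in TA cells by 6.02 (SE 0.30, adjusted p = 2.46e-15) and lower than in goblet cells, with -1.83 (SE 0.20, adjusted p = 3.55e-08). Both passed without cells that score above 0.1, at 7.37 and -1.13.

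Creb3l1 and Creb3l4, membrane-bound factors of the secretory pathway, followed Atoh1. Creb3l1 was at 87.9 and 93.6 in goblet progenitors, 228 and 278 in goblet cells and 5.54 and 3.04 in TA cells, and Creb3l4 was at 42.6 and 41.6, against 171 and 141 in goblet cells and 0.826 and 0 in TA cells. Klf4, a zinc finger factor of goblet cell differentiation, was at 155 and 145, against 526 and 402 in goblet cells and 10.2 and 6.47 in TA cells. Foxa3, a forkhead factor, was at 60.5 and 67.4, against 261 and 245 in goblet cells and 5.37 and 7.40 in TA cells. Each of these 4 passed against TA cells, by 4.33, 6.32, 4.16 and 3.33, and was lower than in goblet cells, with -1.48, -1.90, -1.62 and -1.998.

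The factors that separated goblet progenitors from secretory progenitors included those of the endocrine lineage, while the values for the tuft factor Pou2f3 rest on few UMIs. Neurog3, which specifies enteroendocrine cells, was at 8.62 and 18.2 in goblet progenitors and 236 and 433 in secretory progenitors, with -4.67 (SE 0.44, adjusted p = 0.00193). In goblet progenitors 32.8% and 33.3% of its UMIs came from 1 cell in each mouse. Sox4, an SRY-box factor of early secretory progenitors, was at 75.5 and 83.8 against 755 and 959 (-3.41, adjusted p = 9.60e-06). Hes6 was at 65.0 and 80.0 against 173 and 329 (-1.72, adjusted p = 2.62e-06), and Foxa2 was at 15.3 and 17.3 against 45.1 and 65.8 (-1.71, adjusted p = 8.32e-04), a call that ended without cells that score above 0.1. Pou2f3, which specifies tuft cells, had 2 and 1 UMIs in goblet progenitors and stood at 7.77 and 10.4 scaled CPM in secretory progenitors. In secretory progenitors 1 UMI is worth 1.55 and 3.46 scaled CPM, and 3 UMIs are worth 4.66 and 10.4.

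Genes of Notch signalling were read next, from ligands to receptors and targets. Dll1, the ligand of secretory progenitors, was at 48.5 and 57.1 in goblet progenitors, 117 and 81.4 in goblet cells, 129 and 152 in secretory progenitors and 4.54 and 4.36 in TA cells. It was higher than in TA cells by 3.54 (SE 0.28, adjusted p = 1.07e-10), and lower than in goblet cells, with -0.94 (SE 0.23, adjusted p = 0.00239) and than in secretory progenitors, with -1.397 (SE 0.27, adjusted p = 0.00274). Both calls of a lower level ended without cells that score above 0.1, with -0.16 (adjusted p = 0.706) and -0.60 (adjusted p = 0.261), whereas the value against TA cells was then 4.28. Dll4, a second ligand, was at 14.9 and 16.4 against 0.744 and 2.38 in TA cells (3.42, adjusted p = 1.99e-07).

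The receptor Notch1 was at 10.4 and 9.83 in goblet progenitors, 0.533 and 0.941 in goblet cells and 16.0 and 18.4 in TA cells. It was higher than in goblet cells by 3.87 (SE 0.64, adjusted p = 3.26e-05), and its value of -0.69 (SE 0.30, adjusted p = 0.216) against TA cells did not pass. Hes1, a repressor that Notch switches on and that holds Atoh1 down, was at 36.7 and 51.0 against 11.7 and 31.99 in goblet cells and 44.0 and 73.7 in TA cells. The call of 1.12 (SE 0.26, adjusted p = 0.00160) against goblet cells ended without cells that score above 0.1, and -0.39 (adjusted p = 0.405) against TA cells did not pass. Of the 16 tested Notch genes 3 were higher than in TA cells and 0 lower, 5 higher and 1 lower than in goblet cells, and 0 higher and 2 lower than in secretory progenitors. Of all genes 5.44% were higher than in TA cells and 13.2% higher than in goblet cells. A share of 16% was lower than in goblet cells and 1.99% lower than in secretory progenitors. Counts without cells that score above 0.1 were 3 and 1 against TA cells, 1 and 0 against goblet cells and 0 and 0 against secretory progenitors.

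Cell division genes set goblet progenitors apart from goblet cells. All 32 tested genes of G2 and mitosis were higher in goblet progenitors than in goblet cells (median log2 fold change 2.91), and 29 of 30 genes of DNA replication were higher (median 2.61). Of all genes 13.2% were higher, with a median of -0.01. Against TA cells 0 of the 62 genes passed in either direction, where 5.44% of all genes were higher and 0.79% lower. With so few genes called lower, a count of 0 lower does not show that the levels were equal. The 32 mitotic genes lay between -0.77 and -0.18 against TA cells (median -0.42, beside -0.06 for all genes), and all 32 were lower in both mice. Of the 30 replication genes 20 were lower and 1 was higher in both mice. Without cells that score above 0.1 the counts were unchanged, 32 and 29 against goblet cells and 0 against TA cells, and the mitotic median against TA cells was -0.06.

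Top2a, the topoisomerase that untangles replicated chromosomes, was at 205 and 190.4 in goblet progenitors, 283 and 234 in TA cells, 6.13 and 14.1 in goblet cells and 35.7 and 27.7 in secretory progenitors. Top2a was above goblet cells by 4.41 (SE 0.61, adjusted p = 6.65e-04), and its value against TA cells, -0.39 (SE 0.44, adjusted p = 0.756), did not pass. Mki67, a coat protein of mitotic chromosomes, was at 168 and 147 against 228 and 150.2 in TA cells and 19.98 and 27.8 in goblet cells, with 2.76 (SE 0.58, adjusted p = 0.00750) against goblet cells.

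Cdk1, the kinase that starts mitosis, was at 111 and 80.5 in goblet progenitors, 9.59 and 8.47 in goblet cells and 17.1 and 3.46 in secretory progenitors. It passed against both, with 3.44 (adjusted p = 1.27e-08) and 3.03 (adjusted p = 2.17e-04), and stood at 144 and 82.4 in TA cells. Prc1, which bundles the microtubules of the dividing spindle, was at 61.4 and 51.5 against 0 and 1.41 in goblet cells, and passed. Hells and Rrm1, a chromatin remodeller and the large subunit of ribonucleotide reductase, were at 50.6 and 51.9 and at 59.1 and 56.6 against 3.73 and 4.70 and 4.26 and 4.70 in goblet cells. Ube2c, of the ubiquitin pathway that ends mitosis, was at 291 and 212 against 20.8 and 35.3, and Uhrf1, which keeps DNA methylation through replication, was at 32.03 and 28.1 against 1.07 and 6.12. Against secretory progenitors 10 of the 32 mitotic genes and 3 of the 30 replication genes were higher and 0 lower, where 1.53% of all genes were higher.

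The promoters of these genes were searched for known control sequences, and a few are shown because the members of each list moved together. RefSeq (GRCm38.p6) gave promoters, from 250 bases before to 50 after the start, for 28 of the 32 mitotic genes and 23 of the 30 replication genes. The letters TTTGAA, the core of the cell cycle homology region, were found on either strand in 20 of 28 mitotic promoters (71.4%), 3 of 26 replication promoters (11.5%) and 17.9% of all 32851 promoters. The letters TTCCCGC, an E2F site, were found in 0 of 28 mitotic promoters, 13 of 26 replication promoters (50.0%) and 4.6% of all. Such a match describes the sequence and is neither shown to be a bound site nor a cause. Capitals mark the matched letters or their complement in 30-base windows, written 5′ to 3′ on the strand of the gene.
Cdk1, chr10:69352966-69352995, minus strand: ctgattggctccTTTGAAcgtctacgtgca
Mki67, chr7:135716460-135716489, minus strand: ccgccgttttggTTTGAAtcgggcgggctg
Ube2c, chr2:164769888-164769917, plus strand: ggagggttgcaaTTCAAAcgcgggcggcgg
Rrm1, chr7:102441617-102441646, plus strand: aggagaactcgTTCCCGCcaggtccgcttt
Hells, chr19:38930918-38930947, plus strand: accaccgggttTTCCCGCgaaagagaagcg
Uhrf1, chr17:56303278-56303307, plus strand: tgctttctcgcTTCCCGCcacagcgccagc

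Goblet and cell cycle RNA were often detected under the same goblet progenitor barcode, and whether such a droplet held 1 cell or 2 was not tested. In cells thinned to 5000 UMIs, Mki67 or Top2a was detected in 117 of 162 goblet progenitors (72.2%) in replicate 1 and 61 of 84 (72.6%) in replicate 2. The shares were 84.4% and 81.4% in TA cells, 9.06% and 12.3% in goblet cells and 9.68% and 10.5% in secretory progenitors. Muc2 together with Mki67 or Top2a was detected in 101 (62.3%) and 53 (63.1%) goblet progenitors, against 3.75% and 3.10% of TA cells and 8.70% and 12.3% of goblet cells.

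Muc2 alone was detected in 88.3% and 88.1% of thinned goblet progenitors, 99.6% and 98.6% of goblet cells and 4.69% and 3.10% of TA cells. Paneth cells reached 98.7% and 74.1% and secretory progenitors 29.0% and 26.3%, so Muc2 detection was not confined to the goblet classes. The share was 0.860% and 3.66% for enterocytes, 5.13% and 10.5% for tuft cells and 11.3% and 20% for enteroendocrine cells. Median depths before thinning were 16975 and 13405, 8630 and 13016.5, and 7399.5 and 9389.5 UMIs in these 3 types, and 44683.5 and 80820 in Paneth cells. Spdef was detected in 32.1% and 27.4% of thinned goblet progenitors and 80.2% and 65.5% of unthinned ones, and Atoh1 in 35.8% and 26.2% of thinned ones.

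The summed UMIs of 10 goblet markers varied widely from cell to cell. Of 5000 UMIs the median goblet progenitor gave them 232.5 and 270.5, with quartiles of 108 and 392 in replicate 1 and 140.5 and 447 in replicate 2, and a range of 3 to 918 and 10 to 1141. The median goblet cell gave them 955.5 and 920.5, the median secretory progenitor 69 and 102, and the median TA cell 0 in both mice. Mitotic genes took a median of 20 and 17 UMIs in goblet progenitors, 29.5 and 24 in TA cells and 1 in goblet cells of both mice. Goblet progenitors with Mki67 or Top2a had a median of 203 and 246 goblet marker UMIs, and those without had 312 and 354. Across cells the goblet and mitotic sums had a Spearman's rho of -0.05 over 162 cells and -0.22 over 84, as a description of cells that share a library.

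**Figure D3:**
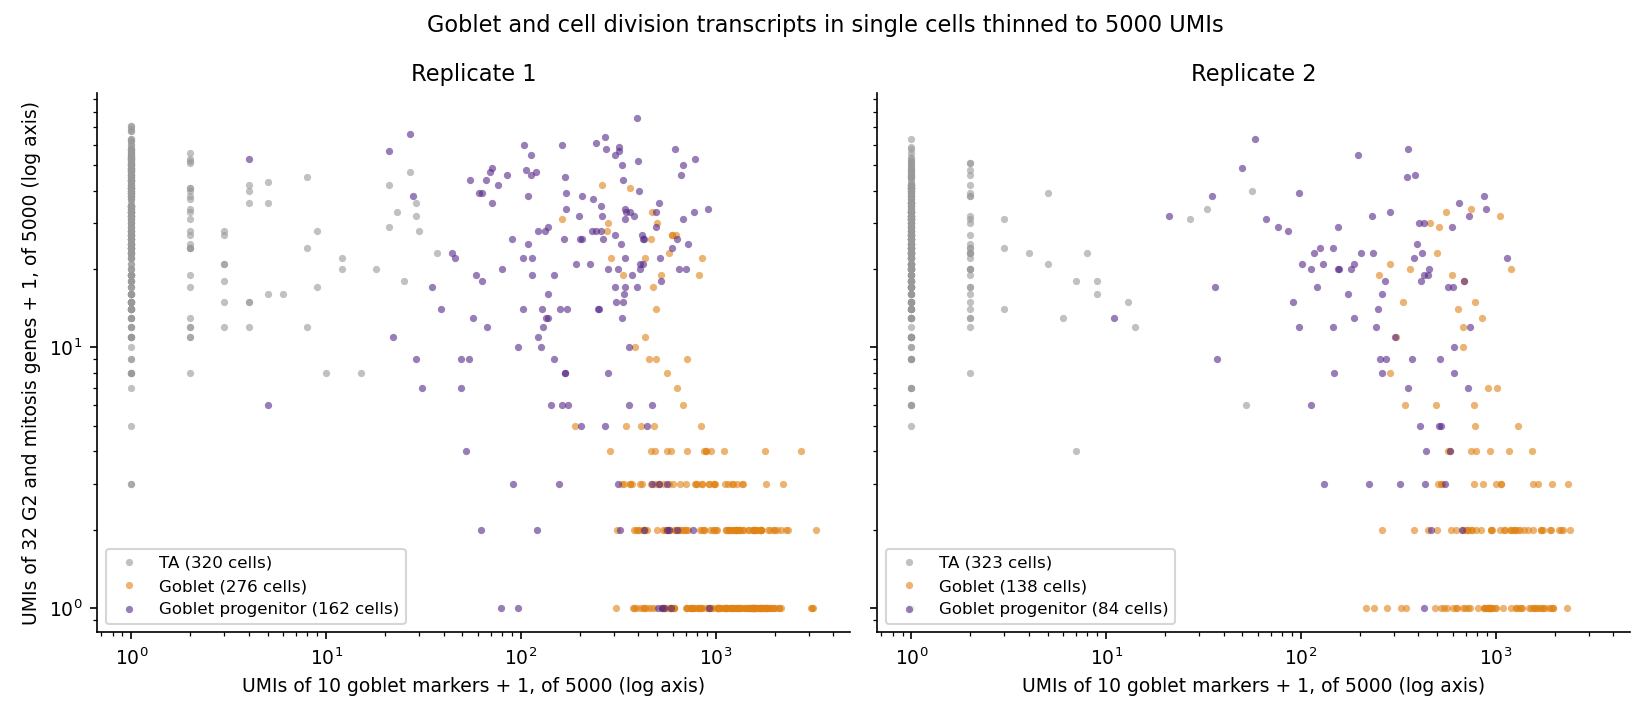
UMIs of 10 goblet markers (x axis) against UMIs of 32 genes of G2 and mitosis (y axis), both plus 1 of 5000 UMIs per thinned cell on log axes, for single TA cells, goblet progenitors and goblet cells of each mouse. Goblet progenitors lie between the other types, with medians of 232.5 and 270.5 goblet marker UMIs and 20 and 17 mitotic UMIs.

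Goblet progenitors on either side of a doublet score of 0.1 differed in content. The 47 and 44 cells at or under 0.1 had a median depth of 18650 and 18216.5 UMIs, and the others 35274 and 22861. Thinned to 5000 UMIs, the lower-scoring cells gave goblet markers a median of 255 and 294.5 UMIs and mitotic genes 35 and 18.5, and the others 204 and 258 and 18 and 16.5. Atoh1 was detected in 59.6% and 34.1% of the lower-scoring cells and 26.1% and 17.5% of the others, Dll1 in 51.1% and 40.9% against 22.6% and 32.5%, and Mki67 in 70.2% and 65.9% against 47.8% and 50.0%. Muc2 went the other way, with 83.0% and 81.8% of lower-scoring cells and 90.4% and 95% of the others. Lower-scoring goblet progenitors thus also held goblet markers, Atoh1 and mitotic RNA in both mice.

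Goblet progenitors were next placed on the line from TA to goblet cells. Of genes at 50 scaled CPM or more that differed at least 4-fold between those types in both mice, 244 were higher in goblet cells and 76 in TA cells. All 244 goblet-high genes were between the 2 types in both mice, at a median of 21.8% and 28.2% of the goblet level counted up from TA cells. Of the TA-high genes 73 of 76 were between, at a median of 66.3% and 65.7% of the TA level counted up from goblet cells. Without cells that score above 0.1, 247 of 250 goblet-high genes were between, at 36.0% and 25.7%, and 77 of 111 TA-high genes, at 36.6% and 62.9%. The medians of replicate 1 moved on both sides, and the sets of genes differed too.

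**Figure D4:**
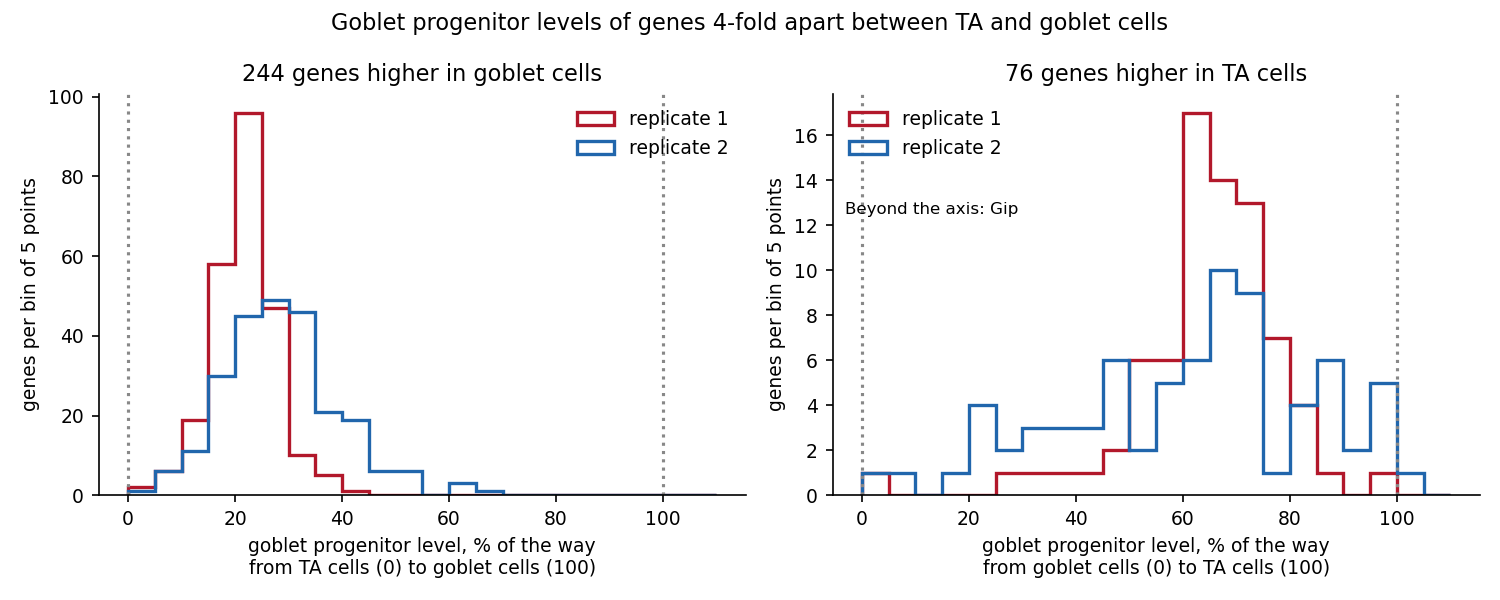
Histograms of gene positions on the linear scale from the lower type (0%) to the higher type (100%), for 244 genes higher in goblet cells and 76 higher in TA cells, by mouse. Goblet-high genes centre on 21.8% and 28.2% and TA-high genes on 66.3% and 65.7%, and Gip lies beyond the axis in replicate 2.

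The RNA of folding genes of the endoplasmic reticulum was also intermediate between TA and goblet cells. Of 36 tested genes for folding and stress in this compartment, 25 were higher in goblet progenitors than in TA cells and 0 lower (median log2 fold change 0.93). Against goblet cells 0 were higher and 32 lower (median -1.28). Of all genes 5.44% were higher than in TA cells (median -0.06) and 16% lower than in goblet cells (median -0.01). Among cells that score 0.1 or less these were 28 and 0, and 0 and 32. Against secretory progenitors 9 were higher and 0 lower, where 1.53% of all genes were higher. The 36 genes summed to 6653 and 7089 scaled CPM in goblet progenitors, beside 6685 and 5804 in enterocytes.

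Kdelr3, a receptor that returns escaped chaperones, was at 25.6 and 23.9 in goblet progenitors, 129 and 101 in goblet cells and 0.330 and 0 in TA cells, with 6.74 (SE 0.40, adjusted p = 4.43e-14) against TA cells and -2.26 (SE 0.21, adjusted p = 3.74e-09) against goblet cells. Pdia5, a disulfide isomerase, was at 60.2 and 76.7, against 205 and 223 in goblet cells and 2.89 and 1.98 in TA cells. Fkbp11, a peptidyl-prolyl isomerase of secretory cells, was at 66.1 and 76.3 in goblet progenitors and 4.66 and 3.46 in secretory progenitors, the highest log2 fold change in that comparison among the genes named by rule (4.04, SE 0.60, adjusted p = 3.33e-04).

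General chaperones had smaller log2 fold changes than these members. Hspa5, or BiP, was at 432 and 382 in goblet progenitors, 1209 and 854 in goblet cells and 252 and 181 in TA cells (0.93, adjusted p = 1.24e-04 against TA cells), and Pdia6 was at 277 and 319, against 879 and 855 in goblet cells and 122 and 101 in TA cells (1.42, adjusted p = 2.34e-07). Xbp1, the factor that expands the secretory apparatus, was at 132 and 152, against 317 and 332 in goblet cells and 67.5 and 73.7 in TA cells (1.005, adjusted p = 4.28e-05). Dnajb9 and Ddit3, targets of the unfolded protein response, were at 17.0 and 14.0 and at 8.75 and 7.49 in goblet progenitors, and lower than the mean of the other 8 types, with -0.73 (adjusted p = 0.00860) and -0.75 (adjusted p = 0.0499). Both calls against that mean ended without cells that score above 0.1.

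Promoters of these folding genes were searched for the endoplasmic reticulum stress response element, CCAAT followed by 9 bases of any kind and CCACG, on either strand, which itself contains a CCAAT box. It was found in 7 of 29 promoters of the list (24.1%, from 29 of 36 genes matched) and in 39 of all 32851 (0.119%). It was found in 0 of 28 mitotic promoters, while any CCAAT box, those within the element included, was in 21 of 28 (75%), in 19 of 29 folding promoters (65.5%) and in 37.4% of all. The windows below have the fixed letters of the element in capitals.
Hspa5, chr2:34772020-34772049, plus strand: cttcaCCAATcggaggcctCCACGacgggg
Pdia6, chr12:17266486-17266515, plus strand: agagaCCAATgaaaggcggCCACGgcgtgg
Dnajc3, chr14:118937822-118937851, plus strand: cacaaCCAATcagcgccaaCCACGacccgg
Canx, chr11:50325794-50325823, minus strand: attgaCCAATcaccacgctCCACGaagaat
Of these 4 genes, Hspa5, Pdia6 and the co-chaperone Dnajc3 (122 and 101, against 73.5 and 48.5 in TA cells) were higher in goblet progenitors than in TA cells, while Canx, which encodes calnexin, was at 217 and 244 against 212 and 219 (0.10, adjusted p = 0.859).

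Enzymes that build mucin sugars were tested for 21 of 26 genes. Of these 12 were higher in goblet progenitors than in TA cells and 0 lower, and 1 was higher and 13 lower than in goblet cells. Of all genes 5.44% were higher than in TA cells and 16% lower than in goblet cells. The counts without cells that score above 0.1 were 12 and 2 against TA cells and 0 and 12 against goblet cells, of 20 tested. Chst4, a sulfotransferase, was at 23.5 and 15.4 in goblet progenitors, 124 and 109.6 in goblet cells and 0.909 and 1.32 in TA cells. Galnt12, which starts O-linked chains, was at 93.0 and 94.5, against 342 and 309.5 in goblet cells and 5.54 and 5.02 in TA cells, and Gcnt3, which branches them, was at 72.4 and 87.0, against 288 and 239 in goblet cells and 2.81 and 2.77 in TA cells. C1galt1c1, the chaperone of the core 1 synthase, was at 67.4 and 58.0, against 275 and 185 in goblet cells and 18.7 and 12.0 in TA cells. These 4 passed against TA cells, by 4.20, 4.13, 4.804 and 2.03, and against goblet cells, with -2.55, -1.80, -1.74 and -1.87.

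**Figure D5:**
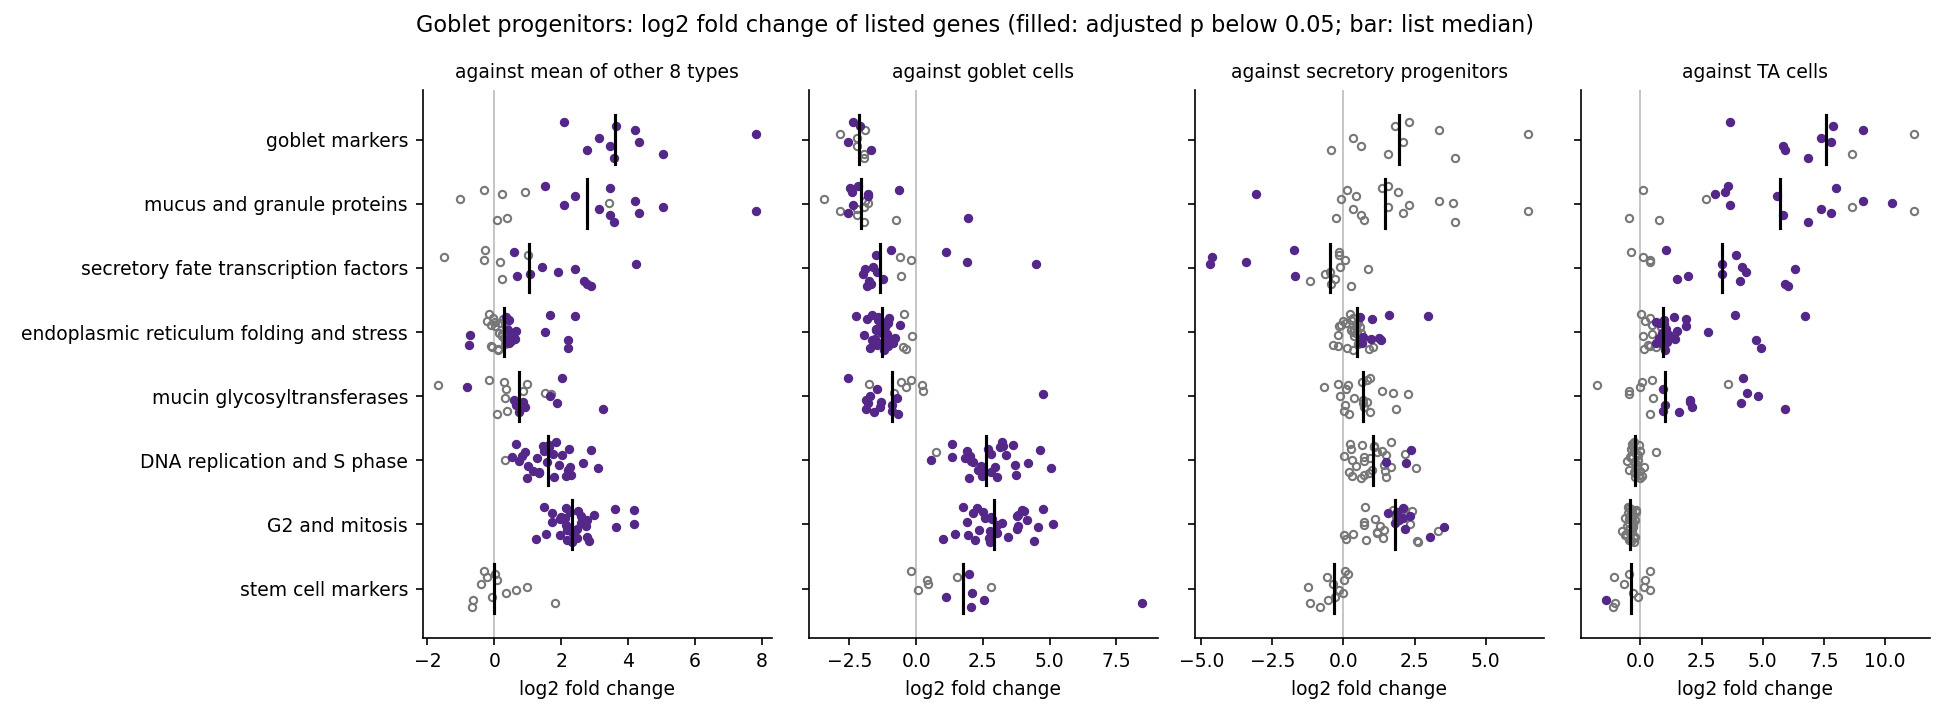
Log2 fold change of each tested gene of 8 lists in the 4 comparisons of goblet progenitors, with called genes filled and the median of each list as a line. Mitotic and replication genes lie above 0 against goblet cells and near 0 against TA cells, and goblet genes lie below 0 against goblet cells and far above 0 against TA cells.

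Among genes higher in goblet progenitors than in goblet cells outside these lists were metabolic and surface genes that TA cells also held. Otc, the ornithine transcarbamylase of the urea cycle, was at 123 and 47.3 in goblet progenitors, 2.40 and 11.3 in goblet cells and 216 and 97.8 in TA cells (3.84, adjusted p = 0.00250 against goblet cells). Dmbt1, a secreted scavenger receptor-like protein, was at 283 and 265, against 11.5 and 53.2 in goblet cells and 455 and 401 in TA cells (3.23, adjusted p = 0.00363). Among genes lower than in goblet cells, Ramp1, a receptor activity-modifying protein, was at 41.9 and 37.9 against 328 and 152 (-2.56, adjusted p = 4.33e-07). The RNA of Gde1, a glycerophosphodiester phosphodiesterase, was at 22.9 and 14.97 against 137 and 88.9 (-2.60, adjusted p = 4.84e-09).

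Immediate early genes, which respond to stimuli and to tissue dissociation, were lower in goblet progenitors than in goblet cells. Of 10 tested, 9 were lower and 0 higher, where 16% of all genes were lower, with a median log2 fold change of -1.99. Without cells that score above 0.1 the lower count was 6. Fos was at 164 and 134 against 730.4 and 482 in goblet cells, and Jund was at 222 and 239 against 618 and 669 (-1.48, adjusted p = 6.08e-08). The part of dissociation in this difference was not tested. Against TA cells 1 was higher and 0 lower, where 5.44% of all genes were higher.

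Few genes were lower in goblet progenitors than in TA cells, and those named by rule include metabolic enzymes. Arg2, a mitochondrial arginase, was at 58.3 and 19.7 against 131 and 54.7 in TA cells (-1.25, SE 0.20, adjusted p = 3.59e-05). Glod5, a glyoxalase-domain protein, was at 115 and 68.3 against 197 and 163 (-0.97, SE 0.18, adjusted p = 2.50e-04), and Khk, which phosphorylates fructose, was at 77.4 and 41.6 against 141 and 82.7 (-0.88, SE 0.21, adjusted p = 0.00899). All 3 were lower in each mouse, as the naming rule requires. The sums of the classes overlapped for Arg2 but not for Glod5 or Khk, and the share of such genes over all genes was not computed. Without cells that score above 0.1 there were 522 genes lower than in TA cells in place of 87, of which 72 were shared, and the values were -2.78 for Arg2 and -2.27 for Glod5.

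Against secretory progenitors the genes that were lowest by the naming rule included regulators of the endocrine lineage and of cell cycle exit. Cdkn1c, the inhibitor p57, was at 0.643 and 2.81 in goblet progenitors and 91.7 and 20.8 in secretory progenitors (-5.81, SE 0.81, adjusted p = 0.00307). Insm1, a zinc finger factor of endocrine cells, was at 3.99 and 7.49 against 93.3 and 142 (-4.46, SE 0.32, adjusted p = 2.27e-10). Gfra3, a receptor of the GDNF family, was at 1.42 and 0.936 against 57.5 and 90.1 (-5.59, adjusted p = 3.60e-05), and Gadd45a, a stress-response gene, was at 12.1 and 23.9 against 124 and 107 (-2.88, adjusted p = 4.64e-08). The sums of the classes did not overlap for these 4, which were picked as lowest calls with the same sign in both mice. The lack of overlap is therefore no further evidence, and its share over all genes was not computed.

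Among the genes named by rule as higher in goblet progenitors than in secretory progenitors were Fkbp11 and Cdk1, given above, and Rab27b, Scin and S100a6. Rab27b, a small GTPase of granule exocytosis, was at 59.7 and 48.7 against 14.0 and 10.4 in secretory progenitors (2.17, SE 0.38, adjusted p = 6.94e-04), and Scin, an actin-severing protein, was at 71.9 and 72.5 against 6.22 and 6.93 (3.55, SE 0.56, adjusted p = 7.24e-04). S100a6, a calcium-binding protein, was at 160.2 and 136 against 14.0 and 27.7 (3.03, adjusted p = 0.0248). The secretory progenitor sums rest on 31 and 19 cells.

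Markers of the other lineages were read for the whole of each list. Of 12 stem cell markers, 0 were higher and 1 lower than in TA cells, where 5.44% of all genes were higher and 0.79% lower. Against goblet cells 6 were higher and 0 lower, where 13.2% of all genes were higher. Lgr5, the receptor that marks crypt stem cells, was at 3.60 and 1.404 in goblet progenitors and 41.7 and 23.3 in stem cells, and Olfm4 was at 16.9 and 1.404 against 237 and 11.9. Ascl2, a stem cell transcription factor, was the 1 that passed against TA cells, at 5.27 and 4.21 against 11.7 and 17.6.

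The 10 enterocyte markers summed to 1556 and 1181 scaled CPM in goblet progenitors, 1923 and 950.4 in TA cells and 57578 and 31453 in enterocytes. Of them 1 was higher and 1 lower than in TA cells, where 5.44% of all genes were higher and 0.79% lower. Against goblet cells 4 were higher and 3 lower, where 13.2% of all genes were higher and 16% lower. With 10 markers, such counts are too small to set the list apart from all genes. Fabp2, a fatty acid binding protein, was at 931 and 901 in goblet progenitors, 2461 and 2479 in goblet cells and 14885 and 11652 in enterocytes. Without cells that score above 0.1, 4 of the 10 were lower than in TA cells and 2 higher. Of all 10829 genes in that setting 522 were lower and 618 higher.

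Paneth markers were uneven between the mice, with a sum of 182 and 1896 scaled CPM in goblet progenitors and 5846 and 5991 in goblet cells, and 1 of the 8, Defa22, had 0 UMIs in goblet progenitors. Lyz1, the lysozyme of Paneth cells, was at 63.0 and 175 in goblet progenitors, 707 and 1029 in goblet cells and 8.18 and 0 in TA cells, and Defa24 was at 5.40 and 1224, with 68.8% of its UMIs in replicate 2 from 1 cell. The 8 endocrine markers summed to 15.6 and 292, with 1 at 0 UMIs, and Gip, an incretin hormone, gave most of the second value through 1 cell that held 96.5% of its UMIs. The 8 tuft markers summed to 2.06 and 6.55 against 4088 and 4392 in tuft cells, with 3 at 0 UMIs, and the 10 lymphocyte markers to 8.49 and 27.6, with 1 at 0. The part of such cells in the results was not tested.

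Very few genes peaked in goblet progenitors. Of 3822 genes at 20 scaled CPM or more in goblet progenitors of both mice, 3 were higher there than in all 8 other types in each mouse. They were Ptbp1, a splicing regulator, at 95.2 and 137, Pkp4, a plakophilin, at 29.5 and 31.8, and Cnot6, a deadenylase subunit, at 51.7 and 52.9. The ratio to the next type was at most 1.22 in either mouse, and this was not tested. By the same rule 152 genes were highest in secretory progenitors, 221 in TA cells and 433 in goblet cells.

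The study proposed candidate targets of miR-375 from human cells, and their levels are given although no wild-type cells were compared. Of 96 candidates tested, 15 were higher and 10 lower in goblet progenitors than in goblet cells, 2 higher and 0 lower than in TA cells, and 1 higher and 2 lower than in secretory progenitors. Of all genes 13.2% were higher and 16% lower than in goblet cells, and 5.44% higher and 0.79% lower than in TA cells. Against secretory progenitors 1.53% of all genes were higher and 1.99% lower. The counts of candidates lay near or below these shares. Without cells that score above 0.1, 9 were higher and 7 lower than in goblet cells, of 97 tested. Their median log2 fold changes were 0.17, -0.05 and 0.03, beside -0.01, -0.06 and 0.07 for all genes. Zfp36l2, an RNA-binding protein that promotes RNA decay, was at 98.9 and 109.97 in goblet progenitors, 121 and 114 in TA cells, 43.7 and 40.5 in goblet cells and 59.1 and 41.6 in secretory progenitors. It was higher than in goblet cells by 1.30 (SE 0.20, adjusted p = 1.15e-05), and its value of -0.18 (SE 0.18, adjusted p = 0.709) against TA cells did not pass. Plk4, a kinase of centriole duplication, was at 17.6 and 13.6 against 3.197 and 4.23 in goblet cells, and Herpud1, of endoplasmic reticulum degradation, was at 104 and 114 against 29.8 and 29.99 in TA cells (1.86, adjusted p = 1.62e-07).

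The goblet progenitors of the 2 mice were compared without a test, since each mouse gave 1 library, and differences between the mice cannot be told apart from differences between the libraries. Of 2176 genes at 50 scaled CPM or more in either mouse, 100 (4.60%) were at least 2-fold higher in replicate 1 and 137 (6.30%) in replicate 2. Of these 237 genes 126 differed the same way in at least 5 of the other 8 types, and 16 in none.

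Reg3b, an antimicrobial lectin, was at 811 and 4.21, from 6302 and 9 UMIs, and was also higher in replicate 1 in 6 of the other 8 types. Psmb8, a subunit of the immunoproteasome, was at 243 and 42.1 and was higher in replicate 1 in all 8. Hist1h1b, a linker histone, was at 61.8 and 7.95. In the other direction Gip had 0 and 432 UMIs, at least 524-fold higher in replicate 2 over a floor of 3 UMIs, yet in 2 cells. Rps18, a ribosomal protein gene, was at 65.0 and 4729.9, Rpl23a-ps3 at 16.0 and 362 and Gm10260 at 631 and 8.42, each with the same direction in all 8 other types. Their reads may be shared with near-identical copies, so these 3 are uncertain.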

How the data were processed

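Single cells of jejunal crypts from 2 mice were measured, 1 library each. The authors made counts of UMIs per gene and cell with Cell Ranger 3.0.1 on mm10, called doublets with scDblFinder, removed cells under 1500 genes or over 25% mitochondrial UMIs, and clustered and named the cells with Seurat, version 3.2.1 per the labels (the methods name another version). The methods also name SoupX, a correction for free RNA, and the deposited matrices did not show to which values it was applied. The deposited annotation, doublet score (0 to 1) and whole count table were joined to the named matrices by barcode for 3275 of 3275 cells. Of these, 3274 had UMI totals within 1%, and the largest difference was 1.287%. In all, 2937 cell columns of the whole table belong to other samples and were not used.

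Counts were summed per mouse and type into 18 sums (9 types, lymphocytes left out). The sums were fitted with edgeR 4.0.16 (TMM, filterByExpr, robust quasi-likelihood, terms for type and mouse) over 11013 genes, two-sided, with Benjamini-Hochberg adjustment at 0.05. The mouse term pairs sums of the same animal. Intervals for counts are exact Poisson and for shares exact binomial, at 95%, and cover counting error only. Cells were thinned to 5000 UMIs for detection shares. The fit was tested on simulated data. Alternatives were RLE factors, DESeq2 1.42.0, no filter on low counts, no mouse term, thinned cells, a stricter cell filter (at most 10% mitochondrial UMIs and at least 2000 genes), Paneth cells left out and each replicate left out. Leaving out cells with doublet scores above 0.5 or 0.1 was chosen after seeing the data.

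Genes were named if they were lineage markers or on the fate and mucus lists at 20 scaled CPM or more, the 10 highest or lowest calls per comparison at 50 scaled CPM or more, the 2 highest or lowest of each other list, peaked in goblet progenitors, or had the 5 largest ratios in each direction between mice. Other list members were named after their values were seen. Members and lists were chosen with earlier results of these data known.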

Additional observations from a re-analysis of the deposited data

How the results depend on the processing

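Relative to the mean of the other types, the counts of 983 higher and 355 lower genes were 380 and 29 with no replicate block (no mouse term), while the lower count was 69 with thinned cells, 216 with the stricter cell filter and 216 without doublet scores above 0.1. Against goblet cells, 1451 higher and 1757 lower genes became 548 and 496 with no replicate block and 783 and 853 with thinned cells, and the lower count was 1170 without scores above 0.1. Against secretory progenitors, 169 higher genes became 431 without a filter on low counts and 12 with no replicate block, and 219 lower genes became 338 with DESeq2, 29 with no replicate block, 120 with thinned cells and 92 without scores above 0.1. The share of higher genes among these calls, 43.6%, was 27.6% with DESeq2, 37.9% with RLE factors, 29.3% with no replicate block, 63.6% without the filter, 57% with thinned cells, 51.3% without scores above 0.5 and 67.1% without scores above 0.1. Against TA cells, 599 higher genes became 259 with no replicate block and 370 with thinned cells. The 87 lower genes became 251 without the filter, 150 with thinned cells, 235 with the stricter cell filter, 176 without scores above 0.5 and 522 without scores above 0.1. With no replicate block edgeR called 0 (64 at an unadjusted p under 0.05), and DESeq2 with the mouse term called 61.

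Of 313 calls for named genes, 127 were lost with no replicate block, 50 without scores above 0.1, 43 with thinned cells, 29 with DESeq2, 22 with the stricter cell filter, 22 with Paneth cells left out, 8 without the filter, 3 without scores above 0.5 and 2 with RLE factors. Glod5 against the mean reversed with Paneth cells left out (-0.14) and without scores above 0.1 (-0.53), neither past the threshold, and Fam136a against goblet cells reversed without replicate 1 (-0.0075, and 1.43 without replicate 2). Leaving out a replicate left no residual degrees of freedom and gave values with no test. The share of goblet progenitors was 7.04% to 7.78% without either replicate and 10.4% with the stricter cell filter. Detection without thinning was 85.2% and 84.5% for Mki67 and 80.9% and 77.4% for Top2a. Between the mice, 17 and 63 genes were 3-fold apart at 50 scaled CPM, and 47 and 105 were 2-fold apart at 100 scaled CPM. Causes of these shifts were not tested.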
